A study of Mus musculus with 8 samples.

Results

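Collagen chain genes are the genes that encode the alpha chains of the collagens, and their levels were followed in 4T1 cells, a triple-negative mammary carcinoma line from a BALB/c mouse. They were chosen by symbol, as all genes named Col, a number, a and a number, which gave 44 of the 54532 genes listed in each library. The question of the study that these libraries address is how silencing of MCT-1, encoded by Mcts1, and blockade of the IL-6 receptor change the transcriptome of the tumor cells. The cells stably carried either a scramble shRNA or 1 shRNA sequence against Mcts1 (shMCT-1), were kept in puromycin, and received anti-IL-6R antibody at 100 ng/ml or control IgG for 48 h. Both backgrounds were sampled under both antibodies, which makes 4 groups named by background and antibody (such as shMCT-1 + IgG), and mRNA of each group went into 2 libraries, 8 in all. Each background is 1 stably transfected line, so that an effect of the shRNA and a difference between the lines cannot be told apart. The 2 libraries of a group are described as independent biological replicates by the submitters.

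Collagens are trimers of alpha chains, and each chain is made by a gene of its own. Fibril-forming collagens such as types I, III and V build the fibers of the stroma, type IV builds the sheet of the basement membrane on which epithelial cells sit, and types VI, VII, XVI, XVII and XVIII link, anchor or decorate these structures. The chains are hydroxylated and folded in the endoplasmic reticulum with the help of dedicated enzymes and chaperones before they are secreted, trimmed and crosslinked. In breast tumors most of the fibrillar collagen is thought to come from stromal fibroblasts, whereas carcinoma cells can make basement membrane chains.

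Expression is given in CPM, the counts of a gene scaled to the total of its library. Library totals ran from 24100056 to 33063535 counts in scramble and from 19839255 to 23448547 in shMCT-1, without overlap, so that 1 CPM stood for 19.8 to 33.1 counts, and the part of this depth difference in the collagen values was not tested. Mcts1 lay between 11.8 and 15.4 CPM in scramble and between 4.92 and 6.70 CPM in shMCT-1 (log2 fold change -1.08, SE 0.17, adjusted p = 0.000676 within IgG, and -1.13, SE 0.17, adjusted p = 0.000557 within anti-IL-6R). Of 8 markers of mammary epithelial and carcinoma cells, 7 were tested and 6 rose in shMCT-1 within both treatments. Of all genes, 28.3% were called higher within IgG and 26.9% within anti-IL-6R. The markers summed to 3757 to 4135 CPM in scramble and 5289 to 5671 CPM in shMCT-1. A large part of this sum was the mesenchymal marker Vim, 1 of the 6, at 1371 to 1612 CPM in scramble and 2039 to 2240 CPM in shMCT-1. The largest change of the 7 was that of Epcam, at 3.75 to 4.93 CPM in scramble and 49.4 to 54.5 CPM in shMCT-1. Its log2 fold change was 3.62 within IgG and 3.58 within anti-IL-6R. The epithelial cadherin Cdh1 was not called (log2 fold change -0.08 within IgG and -0.05 within anti-IL-6R), and Krt5 was at 0 in all libraries. Fibroblast markers summed to 14.9 to 18.7 CPM, nearly all of it Pdgfra, at 10.9 to 16.7 CPM, and Postn, which was at 1.54 to 2.03 CPM in scramble and rose to 3.11 to 3.88 CPM in shMCT-1, whereas Lum was at 0 and Pdgfrb, Dcn, Fap and Thy1 stayed below 0.1 CPM. Endothelial markers summed to 0.0960 to 0.332 CPM in scramble and 0.554 to 1.91 CPM in shMCT-1, and immune markers to at most 0.182 CPM with Cd3e and Adgre1 at 0. Of the endothelial markers, Cdh5 was at 0 to 0.124 CPM in scramble and 0.454 to 1.46 CPM in shMCT-1 and was called higher in both treatments. It passed the filter on low values only through shMCT-1 libraries, so that it had to differ. Pecam1 overlapped between the backgrounds and was not tested. The part of these markers in the collagen values was not tested. In bulk RNA of this kind, fewer cells that express a gene and less RNA per cell cannot be told apart.

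Of the 44 collagen genes, 15 exceeded 1 CPM in at least 2 of the 8 libraries and were tested, beside 12704 genes tested in all. By group mean, 12 collagen genes were above 1 CPM in scramble + IgG and 12 in scramble + anti-IL-6R, against 15 in shMCT-1 + IgG and 14 in shMCT-1 + anti-IL-6R. The 3 genes that stood under 1 CPM in all scramble libraries and above it in all shMCT-1 libraries were Col1a1, Col5a3 and Col27a1. Between 14 and 18 collagen genes had no count at all in a library. The summed level of all 44 genes was 1798 and 1961 CPM in scramble + IgG and 1872 and 1903 CPM in scramble + anti-IL-6R. It was 1490 and 1469 CPM in shMCT-1 + IgG and 1465 and 1549.7 CPM in shMCT-1 + anti-IL-6R. All 4 shMCT-1 libraries thus held less collagen RNA than any scramble library, a description to which no test was applied. The type IV pair Col4a1 and Col4a2 made up 46.9% to 52.0% of the sum, and the 7 highest genes made up 97.5% to 98.5%.

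**Figure D1:**
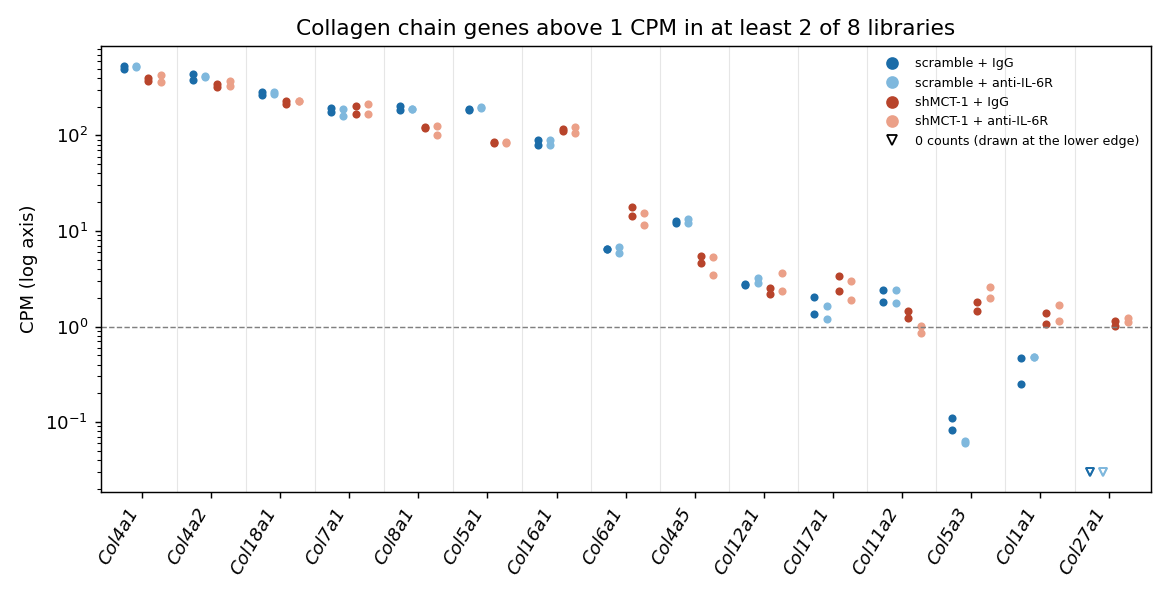
CPM (log axis) of the 15 collagen chain genes above 1 CPM (dashed line) in at least 2 of the 8 libraries, with 1 point per library, colored by group, and open triangles for 0 counts. Points of a gene are to be compared with each other and not with those of another gene of another length. Col4a1, Col4a2, Col18a1, Col8a1, Col5a1, Col4a5 and Col11a2 lay lower in all shMCT-1 libraries than in any scramble library. Col16a1, Col6a1, Col5a3, Col1a1 and Col27a1 lay higher, and Col7a1, Col17a1 and Col12a1 overlapped.

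The comparison of shMCT-1 with scramble within IgG called 10 of the 15 tested collagen genes with edgeR's quasi-likelihood test at an adjusted p-value under 0.05, where 54.4% of all 12704 genes were called. Col16a1, Col6a1, Col5a3, Col1a1 and Col27a1 rose, against 28.3% of all genes called higher, and Col4a1, Col18a1, Col8a1, Col5a1 and Col4a5 fell, against 26.2% called lower. Within anti-IL-6R the test also called 10 of the 15, where 54.3% of all genes were called. The same 5 genes rose, against 26.9% of all genes, and Col4a1, Col8a1, Col5a1, Col4a5 and Col11a2 fell, against 27.3%. In both treatments 9 collagen genes were called in the same direction, which 46.3% of all genes were. With calls this frequent among all genes, these counts by themselves are no result about the collagen genes. The median log2 fold change of the 15 genes was -0.19 within IgG and 0.03 within anti-IL-6R, against 0.01 in each over all genes, and their median size without regard to sign was 0.64 and 0.85, against 0.41 and 0.40. Col27a1 keeps its place above both medians when it is set to the lower bound given for it with its counts. Col1a1, Col5a3 and Col27a1 passed the filter on low values only through the shMCT-1 libraries, so that they had to differ. They are among the genes that rose and enter the median size, which by itself is thus no result about the collagen genes. CPM did not overlap between the 4 scramble and the 4 shMCT-1 libraries for 12 collagen genes, 5 of them higher and 7 lower in shMCT-1, where 64.1% of all genes did not overlap, 29.9% higher and 34.2% lower.

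**Figure D2:**
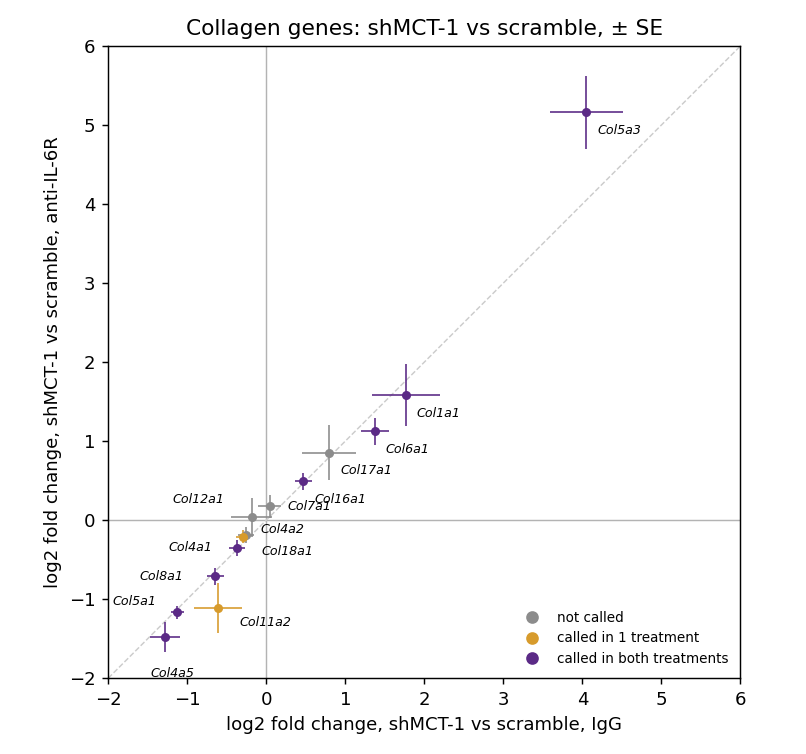
Log2 fold changes, shMCT-1 against scramble, within IgG (horizontal axis) and within anti-IL-6R (vertical axis) for 14 of the 15 tested collagen genes, with bars of 1 SE on each side, colored by whether the gene was called in none, 1 or both treatments. Col27a1 is left out because it had 0 counts in scramble. The values run from -1.28 and -1.48 for Col4a5 to 4.05 and 5.16 for Col5a3, and the dashed line marks equal values.

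The type IV chains Col4a1 and Col4a2, which combine into the common trimer of basement membranes, had the highest levels of all collagen genes per length, with means of 60.9 and 57.1 CPM per kb of exon over the 8 libraries. The genes (ENSMUSG00000031502.11 and ENSMUSG00000031503.13) lie head to head on chromosome 8 of GRCm38, Col4a1 from 11198423 to 11312826 on the minus strand and Col4a2 from 11312805 to 11449287 on the plus strand. Their annotated starts share 22 bases, which are shown because they tie the most abundant pair together and because reads within them could count for either gene if strand was not used in counting. The stretch was not searched for the boxes marked in the later sequences and is printed without capitals, although it holds the letters GGGCGG. On the plus strand, the shared stretch at chr8:11312805-11312826 reads as follows in the GRCm38.p6 sequence from RefSeq.
Col4a1 and Col4a2 shared start: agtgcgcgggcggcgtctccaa

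Col4a1 stood at 494 and 530.1 CPM in scramble + IgG, 529 and 517 CPM in scramble + anti-IL-6R, 398 and 375 CPM in shMCT-1 + IgG, and 358 and 433 CPM in shMCT-1 + anti-IL-6R. All shMCT-1 libraries lay below all scramble libraries. Col4a1 fell by 0.37 on the log2 scale within IgG (SE 0.10, adjusted p = 0.0125) and fell by 0.35 within anti-IL-6R (SE 0.10, adjusted p = 0.0162). The call within IgG was lost without scramble + IgG replicate 2 (log2 fold change -0.30, adjusted p = 0.0558) or shMCT-1 + IgG replicate 2 (-0.32, adjusted p = 0.0881). Within anti-IL-6R it was lost without scramble + anti-IL-6R replicate 1 (-0.33, adjusted p = 0.0943) or replicate 2 (-0.37, adjusted p = 0.067) and without shMCT-1 + anti-IL-6R replicate 1 (-0.21, adjusted p = 0.135).

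Col4a2 stood at 384 and 439 CPM in scramble + IgG, 412 and 416 CPM in scramble + anti-IL-6R, 346 and 325 CPM in shMCT-1 + IgG, and 329 and 373 CPM in shMCT-1 + anti-IL-6R. These values did not overlap between the backgrounds either, but the difference missed the threshold, with a log2 fold change of -0.25 within IgG (SE 0.10, adjusted p = 0.0562) and -0.18 within anti-IL-6R (SE 0.10, adjusted p = 0.148). It passed within IgG with DESeq2 (adjusted p = 0.0426), with RLE size factors (adjusted p = 0.0462) and when 7 libraries had to exceed 1 CPM (adjusted p = 0.0433). The ratio of Col4a1 to Col4a2 per kb was 1.07 to 1.14 in the scramble libraries and 0.967 to 1.03 in the shMCT-1 libraries.

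The other chains of type IV were far less abundant. Col4a5 (ENSMUSG00000031274.16, chromosome X, 141475385 to 141689234, plus strand), a chain of specialized basement membranes, was at 12.2 and 12.9 CPM in scramble + IgG and 12.1 and 13.5 CPM in scramble + anti-IL-6R. The shMCT-1 libraries held 4.58 and 5.42 CPM with IgG and 3.43 and 5.37 CPM with anti-IL-6R. All shMCT-1 values were lower, and Col4a5 fell by 1.28 on the log2 scale within IgG (SE 0.19, adjusted p = 0.000444) and fell by 1.48 within anti-IL-6R (SE 0.19, adjusted p = 0.000218). Per kb, Col4a1 exceeded Col4a5 by 34.5 to 39.4 times in scramble libraries and 62.3 to 94.1 times in shMCT-1 libraries.

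Col4a6, the neighbor of Col4a5 that is read in the other direction, did not pass the filter on low values. It had 2 counts in scramble + IgG replicate 1 and 0 in the other 3 scramble libraries, against 12 and 13 counts in shMCT-1 + IgG and 11 and 8 in shMCT-1 + anti-IL-6R. Within IgG the pooled ratio of shMCT-1 to scramble CPM was 14.2 with a 95% exact binomial interval of 3.55 to 124, which covers counting error only. Within anti-IL-6R the level was at least 4.92-fold higher than a floor of 3 counts per scramble library. Col4a5 and Col4a6 therefore stood in opposite directions between the backgrounds. Col4a3 and Col4a4, the remaining chains, reached at most 0.124 and 0.512 CPM.

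**Figure D3:**
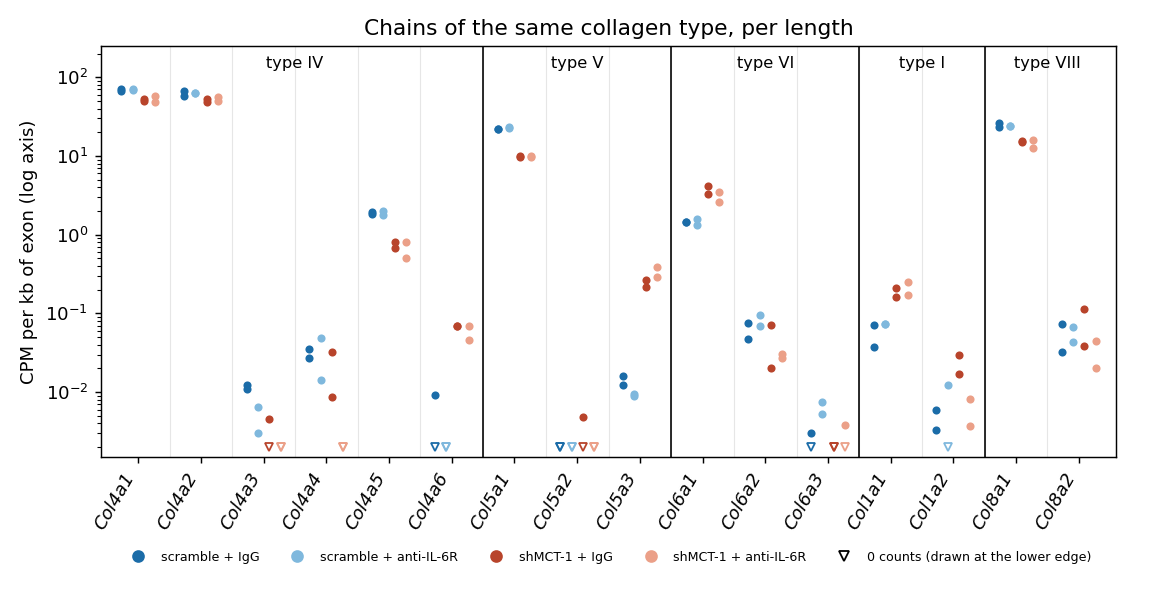
CPM per kb of exon (log axis) of chains of collagen types IV, V, VI, I and VIII, with 1 point per library, colored by group, and open triangles for 0 counts. Col4a1 and Col4a2 lie within the same range, whereas Col5a2, Col6a3 and Col1a2 lie far under Col5a1, Col6a1 and Col1a1, the chains they are known to combine with. For Col1a2, which rests on few counts, the gap depends on the length used. Its mean was 0.00997 CPM per kb of exon against 0.132 for Col1a1, and 0.0232 against 0.146 per kb of longest annotated transcript.

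Among the fibril-forming collagens, 2 chains of type V moved in opposite directions. Col5a1 (ENSMUSG00000026837.15, chromosome 2, 27886425 to 28039514, plus strand) encodes the alpha1 chain of type V, which starts and limits the growth of type I fibrils. It was at 185 and 189 CPM in scramble + IgG, 192 and 199 CPM in scramble + anti-IL-6R, 82.3 and 84.4 CPM in shMCT-1 + IgG, and 84.8 and 82.4 CPM in shMCT-1 + anti-IL-6R. The values of a background lay close together and the backgrounds stood far apart. Col5a1 fell by 1.12 on the log2 scale within IgG (SE 0.08, adjusted p = 7.14e-06) and fell by 1.17 within anti-IL-6R (SE 0.08, adjusted p = 5.01e-06), the smallest adjusted p-values of the 15 genes in both treatments. Genes of chromosome 2 as a whole had a median log2 fold change of -0.36 within each treatment, the part of which in the value of Col5a1 was not tested. Per kb, Col5a1 was 0.313 to 0.338 of Col4a1 in scramble libraries and 0.167 to 0.208 in shMCT-1 libraries. Col5a1 shares 99 and 113 exon bases with 2 transcripts of the opposite strand, 2810430I11Rik and Gm13372, and the strand setting of the counting is not given in the sources used here.

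Col5a3 (ENSMUSG00000004098.7, chromosome 9, 20770050 to 20815067, minus strand), a rarer chain of type V, was at 0.109 and 0.0830 CPM in scramble + IgG and 0.0640 and 0.0605 CPM in scramble + anti-IL-6R. The shMCT-1 libraries held 1.46 and 1.79 CPM with IgG and 2.62 and 2.00 CPM with anti-IL-6R. Every shMCT-1 library lay far above every scramble library, though the scramble values rest on 2 or 3 counts each. The pooled ratio was 16.9 (95% exact binomial interval 6.91 to 53.5) within IgG, from 5 and 74 counts, and 36.9 (14 to 138) within anti-IL-6R, from 4 and 96 counts. The fitted log2 fold change was 4.05 (SE 0.46, adjusted p = 0.000109) and 5.16 (SE 0.46, adjusted p = 2.57e-05). Col5a2, whose chain completes the usual type V trimer, had 1 count in 1 library, shMCT-1 + IgG replicate 1, and none in the others.

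Col27a1 (ENSMUSG00000045672.15, chromosome 4, 63214004 to 63334991, plus strand), a fibril-forming chain known from cartilage, had 0 counts in all 4 scramble libraries. It had 25 and 24 counts in shMCT-1 + IgG and 22 and 27 counts in shMCT-1 + anti-IL-6R, which are 1.14, 1.02, 1.11 and 1.23 CPM. All of its signal was thus in shMCT-1, at a level at least 9.29-fold above the floor of 3 counts per scramble library within IgG and at least 12.5-fold above it within anti-IL-6R (adjusted p = 0.000327 and 0.000216). As Col27a1, Col5a3 and Col1a1 passed the filter on low values only through the shMCT-1 libraries, they had to differ, and when 7 libraries had to exceed 1 CPM none of the 3 was tested.

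The 250 bases before the RefSeq starts of Col5a1, Col5a3 and Col27a1 are shown because these genes had the largest changes in each direction among the fibril-forming chains. The sequences are from GRCm38.p6, are written 5' to 3' on the strand of the gene, and have in capitals the GC box (GGGCGG or its complement CCGCCC) and the CCAAT box (CCAAT or ATTGG). They lie at chr2:27886175-27886424 on the plus strand, chr9:20815068-20815317 on the minus strand and chr4:63215162-63215411 on the plus strand, the last of them inside the annotated span of Col27a1 but outside its exons.
Col5a1: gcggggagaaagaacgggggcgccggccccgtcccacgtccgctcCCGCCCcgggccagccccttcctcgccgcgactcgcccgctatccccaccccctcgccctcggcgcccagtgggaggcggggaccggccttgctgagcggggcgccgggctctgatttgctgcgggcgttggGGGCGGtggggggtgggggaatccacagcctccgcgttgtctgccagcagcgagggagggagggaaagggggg
Col5a3: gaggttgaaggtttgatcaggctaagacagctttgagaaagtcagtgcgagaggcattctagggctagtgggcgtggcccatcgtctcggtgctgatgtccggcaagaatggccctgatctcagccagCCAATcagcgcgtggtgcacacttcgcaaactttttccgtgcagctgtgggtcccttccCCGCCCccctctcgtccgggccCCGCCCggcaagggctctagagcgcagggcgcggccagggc
Col27a1: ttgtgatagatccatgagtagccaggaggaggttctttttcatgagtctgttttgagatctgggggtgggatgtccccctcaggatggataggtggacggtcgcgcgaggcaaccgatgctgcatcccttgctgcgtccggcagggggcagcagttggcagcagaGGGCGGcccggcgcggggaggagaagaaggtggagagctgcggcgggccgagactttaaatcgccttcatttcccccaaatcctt

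Col5a1 held 2 GC boxes, Col5a3 held 2 GC boxes and 1 CCAAT box, and Col27a1 held 1 GC box. None of the 3 held a TATA box (TATAAA or TTTATA). Windows were found for 13 of the 15 tested collagen genes, and 10 of the 13 held a GC box, 8 a CCAAT box and 2 a TATA box, whereas of all 32851 windows of the same length 32.74%, 33.85% and 12.37% did. The sets are unlike, as the 13 genes were all tested and each was counted once. The 32851 windows were not limited to tested genes and can include several windows of a gene. The shares therefore do not show that collagen genes hold more of these boxes than other tested genes. These matches of letters are a description and do not mark bound sites.

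Col1a1 (ENSMUSG00000001506.10, chromosome 11, 94936224 to 94953042, plus strand), the main chain of type I collagen and of stromal fibers, was at 0.472 and 0.249 CPM in scramble + IgG, 0.480 and 0.484 CPM in scramble + anti-IL-6R, 1.37 and 1.07 CPM in shMCT-1 + IgG, and 1.66 and 1.14 CPM in shMCT-1 + anti-IL-6R. All shMCT-1 libraries lay above all scramble libraries. Col1a1 rose by 1.77 on the log2 scale within IgG (SE 0.43, adjusted p = 0.00628) and by 1.58 within anti-IL-6R (SE 0.39, adjusted p = 0.00745). Its partner Col1a2 reached at most 0.366 CPM and Col3a1 at most 0.0302 CPM, in 1 library.

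Col11a2 (ENSMUSG00000024330.16, chromosome 17, 34039437 to 34066685, plus strand), a chain of type XI, was at 2.43 and 1.78 CPM in scramble + IgG, 1.76 and 2.42 CPM in scramble + anti-IL-6R, 1.24 and 1.45 CPM in shMCT-1 + IgG, and 0.857 and 1.00 CPM in shMCT-1 + anti-IL-6R. All shMCT-1 values were lower, but the change passed the test within anti-IL-6R (log2 fold change -1.11, SE 0.32, adjusted p = 0.0148) and not within IgG (-0.61, SE 0.30, adjusted p = 0.116). The difference between the treatments was not called (interaction -0.50, SE 0.44, adjusted p = 1.00). The call was lost with DESeq2 (adjusted p = 0.0608), without scramble + anti-IL-6R replicate 2 (-0.87, adjusted p = 0.122) and without shMCT-1 + anti-IL-6R replicate 1 (-0.99, adjusted p = 0.0671). Col11a1 was at 0 in all libraries.

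Of the network and multiplexin collagens, Col8a1 and Col18a1 were abundant. Col8a1 (ENSMUSG00000068196.5, chromosome 16, 57624258 to 57754737, minus strand), a short chain known from vessel walls and from the membrane under corneal endothelium, was at 185 and 203 CPM in scramble + IgG, 190.4 and 190.2 CPM in scramble + anti-IL-6R, 119 and 123 CPM in shMCT-1 + IgG, and 100.0 and 124 CPM in shMCT-1 + anti-IL-6R. The backgrounds did not overlap, and Col8a1 fell by 0.64 on the log2 scale within IgG (SE 0.11, adjusted p = 0.000876) and fell by 0.71 within anti-IL-6R (SE 0.11, adjusted p = 0.000512). Col8a2 reached at most 0.503 CPM.

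Col18a1 (ENSMUSG00000001435.15, chromosome 10, 77052178 to 77166548, minus strand), the basement membrane collagen whose end fragment is endostatin, had the third highest level per length, 35.8 CPM per kb on average. It was at 268 and 288 CPM in scramble + IgG, 282 and 273 CPM in scramble + anti-IL-6R, 228 and 213 CPM in shMCT-1 + IgG, and 232 and 229.7 CPM in shMCT-1 + anti-IL-6R. All shMCT-1 values lay below all scramble values. Col18a1 fell by 0.29 on the log2 scale within IgG (SE 0.09, adjusted p = 0.0155), and the value within anti-IL-6R was -0.21 (SE 0.09, adjusted p = 0.0618). The call within IgG was lost without scramble + IgG replicate 2 (log2 fold change -0.22, adjusted p = 0.0597) or shMCT-1 + IgG replicate 2 (-0.24, adjusted p = 0.118), and the difference between the treatments was not called (interaction 0.08, SE 0.12, adjusted p = 1.00). Col15a1, the other multiplexin, reached at most 0.410 CPM.

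Among the collagens that link or decorate other structures, 2 rose in both treatments. Col16a1 (ENSMUSG00000040690.15, chromosome 4, 130047840 to 130099283, plus strand), a fibril-associated collagen that integrins can bind, was at 79.9 and 89.4 CPM in scramble + IgG, 79.7 and 89.0 CPM in scramble + anti-IL-6R, 112 and 115 CPM in shMCT-1 + IgG, and 123 and 106 CPM in shMCT-1 + anti-IL-6R. All shMCT-1 values were higher, and Col16a1 rose by 0.47 on the log2 scale within IgG (SE 0.11, adjusted p = 0.00488) and by 0.49 within anti-IL-6R (SE 0.11, adjusted p = 0.00377). Of the 7 collagen genes with the highest CPM it was the one called higher.

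Col6a1 (ENSMUSG00000001119.7, chromosome 10, 76708792 to 76726168, minus strand), a chain of the beaded filaments that surround cells, was at 6.43 and 6.43 CPM in scramble + IgG, 6.85 and 5.90 CPM in scramble + anti-IL-6R, 18 and 14.5 CPM in shMCT-1 + IgG, and 11.5 and 15.3 CPM in shMCT-1 + anti-IL-6R. The lowest shMCT-1 library lay well above the highest scramble library. Col6a1 rose by 1.38 on the log2 scale within IgG (SE 0.17, adjusted p = 0.000174) and by 1.13 within anti-IL-6R (SE 0.17, adjusted p = 0.000487). The type VI trimer also needs Col6a2 and Col6a3, of which Col6a2 overlapped between the backgrounds, at 0.40 to 0.80 CPM in scramble and 0.171 to 0.595 CPM in shMCT-1, and Col6a3 reached at most 0.0907 CPM. Per kb, Col6a1 exceeded Col6a2 by 16.3 to 30.6 times in scramble libraries and 57.5 to 161 times in shMCT-1 libraries. As Col6a2 stayed under 1 CPM in all libraries, these ratios rest on few counts of it. They would be lower per longest annotated transcript, which is 4.91 kb for Col6a2 against an exon union of 8.33 kb.

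Besides Col4a2, 3 tested genes were called in neither treatment. Col7a1, the chain of the anchoring fibrils under stratified epithelia, was at 159 to 194 CPM in scramble and 167 to 211 CPM in shMCT-1, with log2 fold changes of 0.04 (SE 0.14, adjusted p = 0.811) within IgG and 0.18 (SE 0.14, adjusted p = 0.324) within anti-IL-6R. Col12a1, a fibril-associated chain, was at 2.7 to 3.23 CPM and 2.17 to 3.60 CPM, with -0.19 (SE 0.26, adjusted p = 0.564) and 0.03 (SE 0.25, adjusted p = 0.914). Col17a1, the transmembrane collagen of hemidesmosomes, was at 1.21 to 2.03 CPM and 1.92 to 3.34 CPM, with 0.80 (SE 0.34, adjusted p = 0.0732) and 0.85 (SE 0.35, adjusted p = 0.0604). The ranges of the backgrounds overlapped for all 3 genes. Col17a1 passed the threshold without a filter, at an adjusted p of 0.0283 within IgG and 0.0187 within anti-IL-6R.

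The other 29 collagen genes did not pass the filter, and none reached more than 0.80 CPM in any library. Col11a1, Col9a1, Col19a1, Col6a4, Col6a6 and Col9a2 were at 0 in all 8 libraries, which allows at most 3 counts in each. Col14a1, a fibril-associated chain, was at 0.327 to 0.640 CPM in scramble and 0 to 0.213 CPM in shMCT-1, without overlap. Col15a1, Col8a2, Col20a1, Col9a3, Col4a4, Col2a1, Col23a1, Col1a2 and Col10a1 reached between 0.182 and 0.512 CPM in their highest library. Col4a3, Col6a5, Col6a3, Col28a1, Col26a1, Col24a1, Col25a1, Col13a1, Col5a2, Col22a1 and Col3a1 stayed between 0 and 0.124 CPM. By class, 5 of 11 fibril-forming, 3 of 6 basement membrane, 1 of 6 beaded filament, 2 of 9 fibril-associated, 1 of 4 transmembrane, 1 of 3 short-chain and 1 of 2 multiplexin genes were tested, beside Col7a1, the single anchoring fibril gene.

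The comparison of anti-IL-6R with IgG called no collagen gene in either background. In scramble cells edgeR's quasi-likelihood test called 0% of all 12704 genes and none of the 15 collagen genes, and at an unadjusted p under 0.05 it found 166 genes (1.31%) and no collagen gene. In shMCT-1 cells it again called 0% of genes, with 505 genes (3.98%) and no collagen gene at an unadjusted p under 0.05. DESeq2 called no collagen gene in either background, and of all genes 0 in scramble and 9 in shMCT-1. The exact test of edgeR also called no collagen gene, and of all genes 10 in scramble and 14 in shMCT-1. The log2 fold changes of the 15 genes ran from -0.61, for Col5a3, to 0.39, for Col1a1, in scramble and from -0.52, for Col11a2, to 0.51, for Col5a3, in shMCT-1. For Col6a1 the value was -0.02 (SE 0.18) in scramble and -0.27 (SE 0.16) in shMCT-1, with overlapping libraries in both backgrounds.

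Whether anti-IL-6R acted otherwise in shMCT-1 than in scramble was tested as an interaction. It called 0% of all genes and no collagen gene, and at an unadjusted p under 0.05 it found 315 genes (2.48%) and no collagen gene. DESeq2 called no collagen gene for the interaction, and 5 of all genes. The largest value was that of Col5a3, 1.11 (SE 0.84, adjusted p = 1.00). The SE of the anti-IL-6R difference within a background was 0.08 to 0.11 on the log2 scale for Col4a1, Col4a2, Col18a1, Col8a1, Col5a1 and Col16a1, and up to 0.76 for Col5a3 in scramble, so that a small effect of the antibody on the rare chains was not detectable at this depth.

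The next genes are those that fold and modify collagen in the endoplasmic reticulum. Of 23 listed genes, 21 were tested, and 9 rose and 4 fell within IgG and 10 rose and 3 fell within anti-IL-6R, where 28.3% of all genes were higher and 26.2% lower within IgG and 26.9% and 27.3% within anti-IL-6R, with median log2 fold changes of 0.23 and 0.18 against 0.01 over all genes. The summed level of the list was 2033 to 2171 CPM in scramble and 2472 to 2539 CPM in shMCT-1, opposite to that of the collagen chains. Most of this rise lay in P4hb, at 411 to 484 CPM in scramble and 735 to 775 CPM in shMCT-1, and in Serpinh1. Serpinh1 was at 216 to 237 CPM in scramble and 323 to 330 CPM in shMCT-1. Ppib, also abundant, lay lower in shMCT-1, at 432 to 480 CPM against 531 to 548 CPM in scramble, and was not called. Collagen prolyl 3-hydroxylase P3h1 rose from 7.47 to 8.74 CPM in scramble to 22.2 to 25.3 CPM in shMCT-1 (log2 fold change 1.57, SE 0.11, adjusted p = 6.86e-06 within IgG, and 1.61, SE 0.11, adjusted p = 4.67e-06 within anti-IL-6R). Its relative P3h3 rose by 1.54 and 0.93 on the log2 scale, and the prolyl isomerase Fkbp14 rose by 2.41 and 2.26, from 0.249 to 0.384 CPM in scramble to 1.36 to 1.88 CPM in shMCT-1. Fkbp14 passed the filter on low values only through the shMCT-1 libraries, so that it had to differ. Subunits of prolyl 4-hydroxylase, which stabilizes the triple helix, and the collagen chaperone Serpinh1 were added after their values were seen. P4ha1, P4ha2, P4hb and Serpinh1 rose by 0.59, 1.10, 0.79 and 0.59 within IgG and by 0.65, 1.04, 0.73 and 0.56 within anti-IL-6R, while the third alpha subunit, P4ha3, was not called (log2 fold change 0.23, adjusted p = 0.323 within IgG, and 0.15, adjusted p = 0.512 within anti-IL-6R).

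Of the genes of this list called lower, P3h4, a partner of P3h3 and of lysyl hydroxylase, passed the filter only through the scramble libraries, so that it had to differ. P3h4 had 56 and 42 counts in scramble + IgG and 82 and 63 in scramble + anti-IL-6R, against 0 and 0 in shMCT-1 + IgG and 0 and 2 in shMCT-1 + anti-IL-6R. It was thus at least 14.2-fold lower than scramble within IgG, on a floor of 3 counts per shMCT-1 library, and within anti-IL-6R the pooled ratio of scramble to shMCT-1 was 47.1 (95% exact binomial interval 12.8 to 393). Set to this bound, P3h4 keeps its place below the medians of the list. Mia2 and Sec23a, of the secretory route that exports procollagen, fell, with log2 fold changes of -0.60 and -0.46 within IgG and -0.44 and -0.52 within anti-IL-6R. On the same route Mia3 was not called (0.10 within IgG and 0.03 within anti-IL-6R). Sec24d was not called within IgG (0.27) and rose within anti-IL-6R (0.45). P3h2, a relative of P3h3, fell within IgG (-0.51) and was not called within anti-IL-6R (-0.34).

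Procollagen processing and crosslinking genes were mixed. Of 16 listed genes, 9 were tested, and 4 rose and 2 fell within IgG and 3 rose and 3 fell within anti-IL-6R, with medians of 0.05 and 0.11. Of all genes 28.3% were higher and 26.2% lower within IgG and 26.9% and 27.3% within anti-IL-6R, so that the 3 of 9 in each direction within anti-IL-6R are near the share among all genes. The lysyl oxidase family member Loxl3 rose by 1.79 and 1.62 on the log2 scale, and the procollagen N-proteinase Adamts14 rose by 0.96 and 0.85, from 14.1 to 15.5 CPM in scramble to 26 to 29.3 CPM in shMCT-1. The transglutaminase Tgm2 fell, at -0.46 and -0.53, as did Pxdn, the peroxidase that crosslinks type IV collagen, at -0.41 and -0.36. Tgm2 lies on chromosome 2, where the median log2 fold change of all genes was -0.36 within each treatment. The part of this median in its value was not tested. Furin, a proprotein convertase, rose by 0.32 and 0.30, and the proteinase enhancer Pcolce stood at 0.03 within IgG (adjusted p = 0.852) and fell by 0.38 within anti-IL-6R. The calls of Pxdn, Pcolce and Furin within anti-IL-6R were each lost without scramble + anti-IL-6R replicate 1 (adjusted p = 0.0589, 0.0746 and 0.0649) or replicate 2 (0.0558, 0.0582 and 0.103), that of Pxdn also without shMCT-1 + anti-IL-6R replicate 1 (0.0579), and that of Furin within IgG without shMCT-1 + IgG replicate 1 (0.062).

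Of 11 collagen receptor genes, 7 were tested, and 1 rose and 2 fell within IgG and 2 rose and 3 fell within anti-IL-6R, with medians of -0.04 and -0.50. The shares of all genes were 28.3% higher and 26.2% lower within IgG and 26.9% and 27.3% within anti-IL-6R, against which 7 genes are few. Itga2, the alpha subunit of a collagen-binding integrin, was at 274 to 303 CPM in scramble and 101 to 151 CPM in shMCT-1 and fell, with log2 fold changes of -1.36 and -1.12 (SE 0.16 in each, adjusted p = 0.000118 and 0.000335). Adgrg1, an adhesion receptor that binds type III collagen, rose by 1.89 and 2.01, and the collagen receptor kinase Ddr2 fell, at -0.40 and -0.50. Itga1 stood at -0.09 within IgG (adjusted p = 0.625) and fell by 0.57 within anti-IL-6R, and Itgb1, the common beta subunit, stood at 0.14 (adjusted p = 0.211) and rose by 0.28. The call of Ddr2 within IgG was lost without scramble + IgG replicate 2, shMCT-1 + IgG replicate 1 or shMCT-1 + IgG replicate 2 (adjusted p = 0.0822, 0.0526 and 0.128) and within anti-IL-6R without scramble + anti-IL-6R replicate 2 (0.0527). That of Itga1 was lost without scramble + anti-IL-6R replicate 1 or shMCT-1 + anti-IL-6R replicate 1 (0.0776 and 0.082), and that of Itgb1 without scramble + anti-IL-6R replicate 1 or 2 or shMCT-1 + anti-IL-6R replicate 2 (0.113, 0.146 and 0.0903).

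The partners of type IV collagen in the basement membrane moved in both directions. Of 21 listed genes, 11 were tested, and 6 rose and 3 fell in each treatment, with medians of 0.34 within IgG and 0.25 within anti-IL-6R. Against 28.3% and 26.9% of all genes higher and 26.2% and 27.3% lower, the 3 of 11 that fell are near the share among all genes. The laminin chains Lama3 and Lamb3 rose by 0.71 and 0.64 on the log2 scale within IgG and by 1.15 and 0.93 within anti-IL-6R. Lama5 and the perlecan gene Hspg2 fell, at -0.88 and -0.86 within IgG and -1.10 and -1.03 within anti-IL-6R. Lama5 lies on chromosome 2, with its median of -0.36 within each treatment, the part of which in the value of Lama5 was not tested. Lamc1 fell, at -0.36 and -0.41, a call lost within IgG without scramble + IgG replicate 2, shMCT-1 + IgG replicate 1 or shMCT-1 + IgG replicate 2 (adjusted p = 0.107, 0.0711 and 0.162) and within anti-IL-6R without scramble + anti-IL-6R replicate 1, scramble + anti-IL-6R replicate 2 or shMCT-1 + anti-IL-6R replicate 1 (0.0639, 0.0824 and 0.118).

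**Figure D4:**
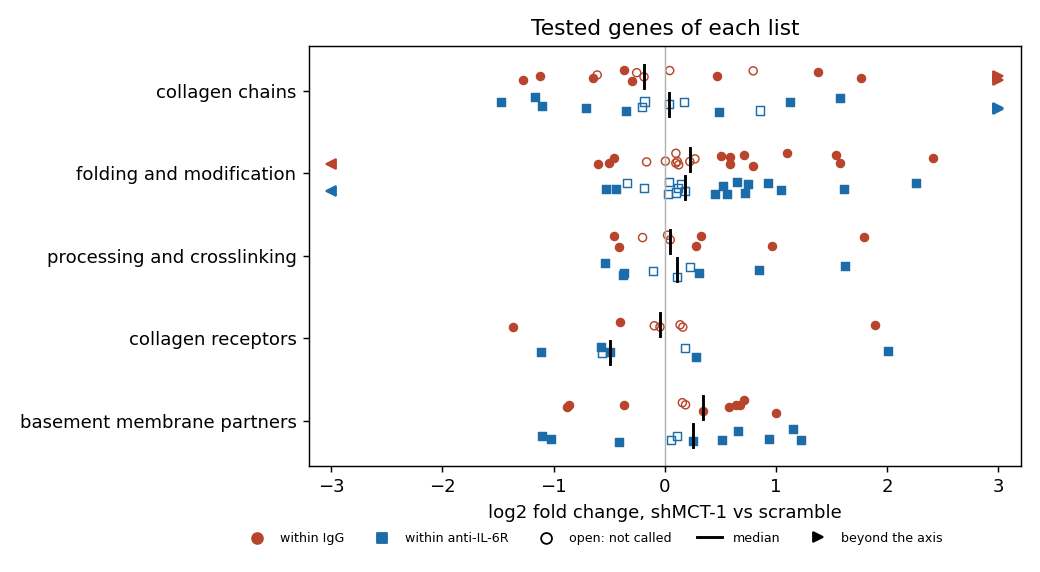
Log2 fold changes, shMCT-1 against scramble, for the tested genes of the collagen chains and of 4 lists of collagen partner genes (horizontal axis), circles within IgG and squares within anti-IL-6R, filled where called. Black bars mark medians, which run from -0.50 for the receptors within anti-IL-6R to 0.34 for the basement membrane partners within IgG, and triangles at the edges mark genes beyond the axis.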

How the data were processed

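RNA was sequenced from 4T1 cells in 8 libraries, 2 in each of the 4 groups given by the labels. The authors used cutadapt 1.18 for trimming and STAR 2.7.0d for alignment to mm10, estimated expected counts per gene with RSEM on a GENCODE annotation, and deposited these expected counts without normalization. Of the values above 0, 29.6% were not whole, and all were rounded here. Whether the molecular identifiers of the kit or the strand entered the counting is not given in the sources used here. Symbols, exon lengths and coordinates came from GENCODE release M21 on GRCm38, where 54495 of 54532 identifiers were found without their version. The exon length of a gene is the union of its annotated exons.

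The 12704 genes that exceeded 1 CPM in 2 or more libraries were kept, library sizes were scaled by TMM, and 4 group means were fitted to all 8 libraries with the quasi-likelihood functions of edgeR 4.0.16 (R 4.3.3). Tests were two-sided, p-values were adjusted over all genes (Benjamini-Hochberg), and called genes are those with an adjusted p-value below 0.05. SEs were derived from the fold change and the F statistic. CPM printed per library use the library totals. A level at 0 was set against a floor of 3 counts per library, and floors and 95% intervals cover counting error only. With 2 libraries against 2 an exact permutation test cannot reach 0.05, so the fit across all genes was used. The script was tested on simulated counts.

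All collagen genes are accounted for, and of each partner list up to 3 called genes with the largest mean change in each direction are named, except for 1 gene that is not reported here. P4ha1, P4ha2, P4ha3, P4hb, Serpinh1, Ppib, P3h2, Mia3 and Sec24d were added outside this rule after their values were seen. The genes and lists were chosen with earlier results of these data known, so no list was tested for enrichment. Replicates of a group differed by more than sampling noise, with a chi-square per gene of 4.06 to 25.8. Alternatives were DESeq2 1.42.0, edgeR's exact test, RLE size factors, no filter, a filter on 7 libraries, filterByExpr, the replicate number as a block, other scalings and lengths, and leaving out each library. Promoter windows are from RefSeq sequence of GRCm38.p6.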

Additional observations from a re-analysis of the deposited data

How the results depend on the processing

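The number of collagen genes called in shMCT-1 against scramble was 10 within each treatment. Within IgG it was 12 of 25 tested with DESeq2, 10 of 15 with edgeR's exact test and 11 of 15 with RLE size factors. It was 12 of 38 with no filter, 8 of 12 when 7 libraries had to exceed 1 CPM and 11 of 18 with filterByExpr. Within anti-IL-6R it was 11 of 24, 11 of 15, 10 of 15, 14 of 38, 8 of 12 and 11 of 18. Of all genes, these settings called 6360, 6854, 6924, 7600, 6110 and 7327 within IgG. Within anti-IL-6R they called 6516, 7242, 6893, 7780, 6035 and 7392 of all genes. The filter on 7 libraries removed Col1a1, Col5a3 and Col27a1 from the test. Without a single library the number ran from 8 to 11 within IgG and from 8 to 11 within anti-IL-6R, fewest without scramble + IgG replicate 2 or shMCT-1 + IgG replicate 2 and without scramble + anti-IL-6R replicate 2. Under the mean over all 8 libraries in place of 2 libraries, 13 collagen genes in place of 15 exceeded 1 CPM. No alternative called a collagen gene for anti-IL-6R or for the interaction. With no filter, 64 of all genes were called for anti-IL-6R in scramble, 133 in shMCT-1 and 97 for the interaction. With 1 library left in a group, the lone library is assumed to vary like those of the other groups.

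With the replicate number as a block, 10 collagen genes were called within IgG and 10 within anti-IL-6R, and 0 in each other comparison. Of all genes, 7035 were then called within IgG and 7017 within anti-IL-6R. The deviations of same-numbered libraries from the group means correlated at -0.0797 to 0.106 across genes, and not in every pair above 0.1. Over the tested collagen genes alone, which are few, the correlations ran from -0.403 to 0.784. The lowest was between scramble + IgG and scramble + anti-IL-6R, and the highest between scramble + anti-IL-6R and shMCT-1 + IgG. Whether same-numbered libraries share more than a number was not tested.

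The log2 ratio of the summed collagen level, shMCT-1 to scramble, was -0.33 and became -0.29 with TMM-scaled library sizes. The ratio of Col4a1 to Col4a2 per kb, 1.06 over all libraries, became 1.17 with the longest annotated transcript as length. With no filter, the anti-IL-6R difference in scramble turned from -0.022 to 0.0028 for Col6a1 and from -0.023 to 0.00051 for Col11a2. Without a single library, log2 fold changes that turned direction ran from -0.10 to 0.18 for Col7a1 and from -0.11 to 0.17 for Pcolce within IgG, from -0.28 to 0.31 for Col12a1 within anti-IL-6R, and, for anti-IL-6R in scramble, from -0.14 to 0.087 for Col6a1 and from -0.27 to 0.20 for Col11a2. The causes of these changes were not tested. Depth limits the collagen genes under 1 CPM, which rest on at most 33.1 counts in a library.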
